A study of Mus musculus with 2 samples.

Results

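Accessible chromatin in maturing mouse erythroid cells was examined inside exons and away from promoters. Overlapping rows of the conservative peak list were merged, and a region was kept where its strongest summit lay in an exon of a protein-coding gene and over 1 kb from every transcription start site (TSS) of a protein-coding transcript. Of the 20080 regions in the list, 687 met this rule, or 3.42% (95% Wilson interval 3.18 to 3.68). They divided into 207 regions in coding sequence, 278 in untranslated exon sequence (260 in 3' and 18 in 5' untranslated regions, UTR) and 202 in noncoding exons, which are exons of transcripts without coding sequence made from protein-coding genes. The annotation was GENCODE M21 and all coordinates are on mm10 (GRCm38).

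The libraries, replicates 1 and 2, were ATAC-seq of G1E-ER4 cells of the C57BL/6J strain, labelled male and postnatal with an age of 0 days, with 50000 cells per library. The cells had been kept for 24 h in 10 nM 17beta-estradiol. G1E-ER4 is 1 cell line that lacks its own Gata1 function and carries a Gata1 coding sequence joined to the part of an estrogen receptor that binds its ligand, so that estradiol switches GATA1 on and the cells mature towards red cells. There was no untreated group, so no value below is a response to estradiol, and the labels call the libraries biological replicates without saying how the cultures were separated. Of the erythroid marker genes, 11 of 12 had a region at a promoter (all but Alas2), against 0 of 8 markers of other cell types. Read depth per library is unknown, and replicate 1's own list held 14012 regions and replicate 2's 15564.

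In ATAC-seq a transposase cuts DNA that is not covered by nucleosomes, and a peak marks where cuts pile up. Exons can hold such sites because enhancers and insulators may overlap coding sequence, long 3' UTRs or exons that most transcripts of the gene splice out. In red cell precursors many enhancers carry a GATA motif, often with an E-box ahead of it that the TAL1 complex can bind, while CTCF binds a longer motif at insulators and loop ends. CpG-rich DNA, by contrast, is common at promoters and carries motifs of the SP factors.

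The sequences below, read from the RefSeq GRCm38.p6 genome on the strand of the match, are examples of motif matches in exonic regions. Only a minority held each kind, 14.7% the E-box GATA composite and 9.02% the CTCF motif. First come composite matches in 1 coding exon, 1 3' UTR and 2 noncoding exons among the strongest regions with this motif. Capitals mark the CTG of the E-box and the GATA motif. Rfc2 (chr5:134593308-134593337, minus strand) encodes a subunit of the clamp loader of DNA replication. Gatc (chr5:115333735-115333764, plus strand) encodes a subunit of a mitochondrial amidotransferase. Nprl3 (chr11:32256316-32256345, minus strand) is the gene whose introns hold enhancers of the neighbouring alpha-globin genes. Ppa2 (chr3:133339557-133339586, plus strand) encodes the mitochondrial inorganic pyrophosphatase.
Rfc2: gtctccCTGggctgtgaAGATAAtggcttc
Gatc: tgggaggCTGtagcaggaAGATAGctgtgt
Nprl3: tcagtccCTGgtctcttAGATAAgaggcaa
Ppa2: gcagctgCTGccaggctcTGATAAcatacg

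The next sequences come from corresponding places of the gene pair Selenbp1 (chr3:94942759-94942788, plus strand) and Selenbp2 (chr3:94702615-94702644, plus strand), which encode selenium-binding proteins, and were chosen after their values were seen. Capitals again mark the CTG and the GATA motif, which here lie in the intron beside the coding exon. All 30 of 30 bases are identical, and the read length, which sets whether a read reaches bases that differ, is not known.
Selenbp1: gcaaaagCTGcttggggcTGATAAgggaga
Selenbp2: gcaaaagCTGcttggggcTGATAAgggaga

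The last set shows the CTCF match, in capitals, in the strongest region of each class that holds one. These are the 3' UTR of Tnfrsf1b (chr4:145214570-145214599, plus strand), a tumor necrosis factor receptor, the last coding exon of Synpo2l (chr14:20661153-20661182, minus strand), an actin-associated protein, and a noncoding exon of Neil3 (chr8:53607227-53607256, plus strand), a DNA glycosylase. Tnfrsf1b and Synpo2l were picked after their values were seen.
Tnfrsf1b: caggacgggCCACCAGGGGGCagacgtgtt
Synpo2l: ttcatgcagCCACTAGGGGGCaggagttac
Neil3: gcactctgaCCACTAGAGGGCtacacacag

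Exons outside promoters held accessible regions at a density between those of promoters and of introns. The 687 regions came to 8.59 per Mb of exon sequence, against 5.85 per Mb in introns, 2.73 per Mb outside protein-coding genes (called intergenic here) and 147 per Mb in promoter windows. Coding sequence had 7.0 regions per Mb, 3' UTRs 8.04, noncoding exons 11.7 and 5' UTRs 23.3, the last from 18 regions only. Relative to its share of the genome (2.93%), exon sequence stood at 1.17-fold in the conservative list, coding sequence at 0.95-fold and introns at 0.794-fold. In the replicates' own lists exonic regions numbered 358 in replicate 1 and 428 in replicate 2, a share of 2.65% ± 0.138 (SD, n = 2). That share lies below the share in the conservative list by more than the spread between replicates. At 2.55% in replicate 1 and 2.75% in replicate 2, it also lies below the 2.93% of the genome, so the direction against the genome share turns with either library's own list. The drop is not particular to exons. Introns held 26.6% of the conservative list, against 20.8% in replicate 1 and 22.6% in replicate 2. Intergenic sequence held 22.7%, against 17.9% and 19.2%, while promoters rose from 47.3% to 58.8% and 55.5%.

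The strength of exonic regions was that of other regions away from promoters. Signal, the authors' enrichment value per peak, had a median of 9.25 over exonic regions (25th to 75th percentile 7.33 to 11.8), against 9.17 in introns, 9.70 in intergenic sequence and 12.9 at promoters. Medians of the classes were 9.46 in coding sequence, 9.50 in 3' UTRs, 9.08 in 5' UTRs and 8.86 in noncoding exons. Exonic regions had a median width of 399 bp, and promoter regions of 600 bp. Few exonic regions reached the strongest 10% of all regions, 1.46% against 2.25% of intron, 5.03% of intergenic and 17.36% of promoter regions.

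**Figure D1:**
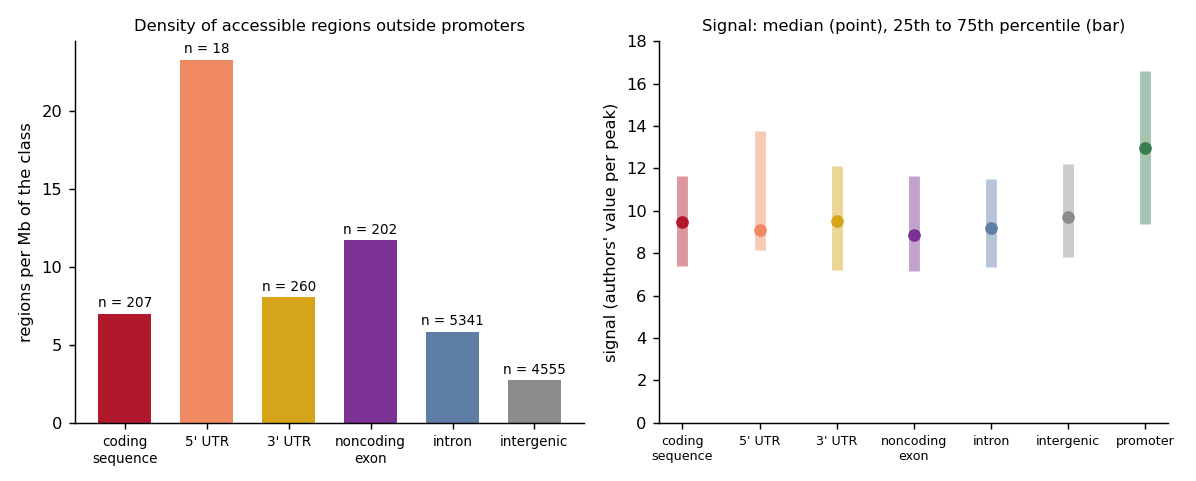
Regions per Mb of each sequence class (left, bars from 0, number of regions above each bar, promoters left out) and signal per peak by class (right, points are medians and bars run from the 25th to the 75th percentile). Coding sequence stands at 7.0 regions per Mb, noncoding exons at 11.7 and introns at 5.85, while median signals of the exonic classes lie between 8.86 and 9.50.

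The replicates gave most exonic regions similar signal, but fewer than a majority passed the thresholds of both libraries' own lists. Of the 687 regions, 286 (41.6%, 38 to 45.4) were called in the own lists of both replicates, against 60.7% of all regions, 41.98% of intron, 43.8% of intergenic and 80.7% of promoter regions. Another 48 were called in replicate 1 only, 105 in replicate 2 only and 248 in neither. Among exonic regions above the median signal of all regions, 193 of 247 (78.1%) were called in both lists, against 77.5% of all regions outside promoters of that strength. Below the median the exonic share was 93 of 440 (21.1%), against 23.7%. The interval of the exonic share includes the shares of intron and intergenic regions.

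Before thresholding, 631 of the 687 exonic regions had a peak in the ranked list of each library. Their median signal was 7.74 in replicate 1 and 8.04 in replicate 2, with Spearman's rho 0.858 and Pearson's r 0.870 across regions, which are not independent and share their 2 libraries. Signals of 607 regions (96.2%) lay within 0.5 log2 units between the replicates, and 248 of 631 were higher in replicate 1. The region farthest towards replicate 2 was the 3' UTR of Sfxn4, a mitochondrial sideroflexin, with 7.64 in replicate 1 and 14.0 in replicate 2, and the farthest towards replicate 1 was a noncoding exon of Fabp4, a fatty acid carrier, with 12.1 in replicate 1 and 8.14 in replicate 2. The 56 regions missing from at least 1 ranked list had a median signal of 6.73.

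**Figure D2:**
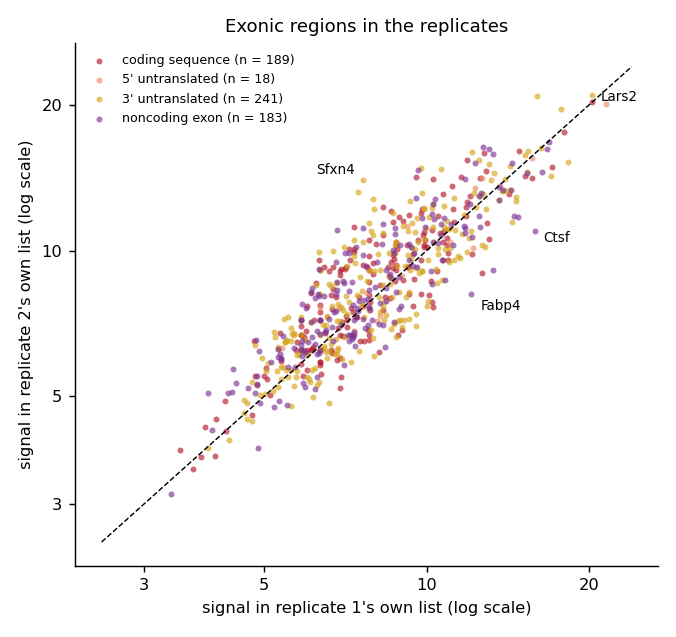
Signal of the 631 exonic regions with a peak in the ranked list of each library, replicate 1 against replicate 2 on log scales, colored by class, with a dashed line of equal values. Points follow the line, and Sfxn4 and Fabp4 lie farthest from it on either side.

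Coding regions stood mostly in internal exons. Of the 207, 135 (65.2%) had the summit in an internal exon, 58 in the last, 8 in the first and 6 in the exon of a single-exon transcript. Host transcripts had a median of 11 exons, and the 1 kb rule leaves out coding sequence near a TSS. The share of all coding bases by exon place was not computed, so these counts are not shown to differ from it. The exons of these summits had a median length of 240 bp, and 61 of 207 (29.5%) were over 1 kb long. Only 43 regions (20.8%) lay wholly inside the exon, so most reached into the intron beside it. The summit lay a median of 7057 bp from the nearest protein-coding TSS.

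The strongest coding region lay in the last exon of Lhx9, a LIM homeobox transcription factor (chr1:138831322-138831694). Its signal was 22.1 in the conservative list, with 20.2 in replicate 1 and 20.2 in replicate 2. Tfap2a, which encodes transcription factor AP-2 alpha, followed with a region over exon 4 of 7 and signals of 17.96 in replicate 1 and 17.5 in replicate 2. These genes belong to developmental programs of other tissues, and their windows are rich in CpG, with observed over expected CpG ratios of 0.713 for Lhx9 and 1.02 for Tfap2a, against a median of 0.383 over coding regions and 0.801 over promoter regions.

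Further down, Rab6b, a small GTPase of vesicle traffic, had signals of 17.1 in replicate 1 and 14.9 in replicate 2 over its last coding exon. The clamp loader gene Rfc2 had a region over exon 7 of 11 with 14.8 in replicate 1 and 16.02 in replicate 2, and its composite match lies 79 bp from the summit, wholly in coding sequence. Mex3a, an RNA-binding protein, had 12.8 in replicate 1 and 15.9 in replicate 2, and D430041D05Rik had 11.9 in replicate 1 and 15.4 in replicate 2. All 6 were called in both replicates' own lists. The order of neighbours among the last 4 is not the same in the replicates, so it is within their spread.

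Regions in 3' UTRs lay near the end of genes, a place that follows from what a 3' UTR is. The same shares over all 3' UTR bases were not computed. Of the 260 regions in 3' UTRs, 244 (93.8%) lay in the last exon, 221 (85.0%) lay wholly inside it, and 222 of the exons were over 1 kb long. Summits stood a median of 1305 bp from the end of the gene. For 121 (46.5%) the nearest protein-coding TSS belonged to another gene, compared with 62 of 207 coding regions (30.0%) and 40 of 202 noncoding exon regions (19.8%).

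Lars2, the mitochondrial leucyl-tRNA synthetase, had the strongest exonic region, in the 3' UTR of its last exon (chr9:123461810-123462253), with 20.2 in replicate 1 and 20.9 in replicate 2. Of the 171 words of 31 bases in its summit window, 109 occur elsewhere in the genome, in up to 8 copies, so part of its reads could come from other places. Ckm, the creatine kinase of muscle, had 17.8 in replicate 1 and 19.6 in replicate 2 at the end of exon 8 of 8 (chr7:19421292-19421623). Iffo2, of the intermediate filament family, had 15.98 in replicate 1 and 20.8 in replicate 2, which differ more than the values of its neighbours in the order. The RNA helicase gene Helz had 18.3 in replicate 1 and 15.3 in replicate 2. Hpd, an enzyme of tyrosine breakdown, had 14.0 in both replicates, and the retinol dehydrogenase gene Rdh13 had 16.3 in both.

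The 18 regions in 5' UTRs resembled promoters in base composition. Their median CpG ratio was 0.760, 13 of the 18 were called in both replicates' own lists, and 9 lay within 1 kb of an annotated start of some other transcript type or noncoding gene. Sf3b5, a splicing factor subunit made from 1 exon, led with 21.5 in replicate 1 and 20.1 in replicate 2, at 3034 bp from the TSS. Arsa, the lysosomal arylsulfatase A, followed with 15.6 in replicate 1 and 15.5 in replicate 2. Pop5, a subunit of RNase P, had 12.7 and 14.1, Nup160, a nuclear pore protein, 13.7 and 13.6, Ethe1, a mitochondrial sulfur dioxygenase, 12.3 and 13.5, and Mtg2, a mitochondrial GTPase, 11.03 and 10.4 in replicates 1 and 2. GATA matches were present in 4 of the 18 windows, the composite in 0 of 18 (upper Wilson limit 17.6%), and the SP motif in 9.

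Noncoding exon regions were, for coding transcripts that span the summit, of the same or an overlapping gene, mostly intronic. In 193 of 202 (95.5%) the summit lay in an intron of a coding transcript, and 158 (78.2%) of the host transcripts were annotated as retained introns. An annotated start of any transcript type lay within 1 kb of 88 (43.6%), compared with 56 coding regions (27.1%) and 29 regions in 3' UTRs (11.2%). That count includes the start of the noncoding host transcript itself, which the 1 kb rule does not leave out. Of the 202 summits, 46 lay in the first exon of the host transcript and 57 in its only exon, so the class itself favors such starts. Ubtf, a factor of ribosomal RNA transcription, had the strongest, with 16.7 in replicate 1 and 16.2 in replicate 2. Spaca6, a sperm membrane protein, had 16.8 in both replicates. Neil3 had 13.3 in replicate 1 and 15.8 in replicate 2, and its CTCF match lies 16.5 bp from the summit. Lrrc74b had 12.7 in replicate 1 and 16.4 in replicate 2. Vps13d, a lipid transfer protein, had 16.3 and 14.5, and Ppa2 had 14.4 and 15.2, in replicates 1 and 2. The Nprl3 region, over the first exon of a processed transcript, had 14.5 in replicate 1 and 11.8 in replicate 2, and its composite match lies at the summit itself, 0.5 bp away.

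Within 100 bp of the summit, GATA motifs were more frequent in exonic than in promoter regions and less frequent than in introns. A GATA motif (GATA with A or T before it and A or G after it, on either strand) was found in 311 of 687 exonic regions (45.3%, 41.6 to 49.0), against 33% of all regions, 56.2% of intron, 45.6% of intergenic and 13.0% of promoter regions. In flanking windows 1 kb from the exonic summits, outside every peak, 27.7% held the motif. By class the share was 39.1% in coding sequence (32.7 to 45.9), 45.4% in 3' UTRs (39.4 to 51.5) and 53.5% in noncoding exons (46.6 to 60.2). The interval of coding sequence and that of introns (54.8 to 57.5) do not overlap. Flanking windows of coding regions held the motif at 28.6%, of 3' UTRs at 25.3% and of noncoding exons at 30.4%. Flanks had a median GC content of 48.3% against 54.2% at exonic summits, and the part of base composition in these shares was not tested.

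The E-box GATA composite, which contains a GATA motif and so overlaps that count, was found in 14.7% of exonic regions (12.2 to 17.5), against 8.68% of all regions, 16.7% of intron, 12.1% of intergenic and 2.11% of promoter regions. Only 2.24% of the exonic flanks held it. Among the strongest with the composite, Lars2, Rfc2, Vps13d, Ppa2 and Nprl3 are described above. Ppm1a, a protein phosphatase, had 15.2 in replicate 1 and 14.2 in replicate 2, and its match lies in a noncoding exon beside the coding summit. Maml3, a coactivator of Notch, had 12.5 in replicate 1 and 15.4 in replicate 2 in its 3' UTR, and Gatc had 14.6 and 12.7. Ctsf, a cathepsin, had 15.9 in replicate 1 and 10.97 in replicate 2, and Fmr1, an RNA-binding protein of neurons, had 14.3 and 13.4, both in noncoding exons. Of these, Ctsf differs most between the replicates. Coding regions had the composite in 29 of 207 windows (14.0%), 3' UTRs in 39 of 260 (15%) and noncoding exons in 33 of 202 (16.3%), and these intervals overlap. Regions with the composite had a median signal of 10.1, and 60 of them (59.4%, 49.7 to 68.5) were called in both own lists. Regions with a GATA motif and no composite had a median of 8.76, and 82 of 210 (39.0%, 32.7 to 45.8) were called in both.

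Coding regions carried these matches in the exon itself as well as beside it. Coding bases made up 74.3% of the coding windows and held 72 GATA matches, or 2.33 per kb, close to the 2.58 per kb (21 matches) of the intronic bases in the same windows. In 19 coding regions a composite lay wholly in coding sequence, in 5 wholly in an intron and in 3 across a border. In 3' UTR windows 155 GATA matches lay in the 3' UTR itself, at 3.05 per kb, and in all 39 regions with a composite it lay there. In noncoding exon windows the density was 3.58 per kb of noncoding exon.

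CTCF matches lay closer to the summit than GATA matches. They occurred in 62 exonic regions (9.02%, 7.10 to 11.4), against 4.96% of all regions, 6.52% of intron, 10.5% of intergenic and 1.16% of promoter regions, and in 4 of 1293 exonic flanks (0.309%). The median distance from the summit was 19.5 bp, and 56 of 62 (90.3%) lay within 50 bp, against 186 of 311 (59.8%) for GATA matches. The same held in introns (95.4% for CTCF and 68.3% for GATA) and in intergenic regions (93.5% and 65.7%). GATA matches were also in 27.7% of exonic flanks, and the part of such background matches in this difference was not tested. By class, 3' UTRs held the CTCF match in 36 of 260 regions (13.8%, 10.2 to 18.6), coding sequence in 15 of 207 (7.25%, 4.44 to 11.6) and noncoding exons in 11 of 202 (5.45%, 3.07 to 9.49). The interval of 3' UTRs does not overlap that of noncoding exons or that of introns (5.88 to 7.21). Regions with a CTCF match were narrow, with a median width of 301 bp, against 481 bp with the composite. Their median signal of 9.19 is close to the 9.25 of all exonic regions. Of the 62, 16 (25.8%, 16.6 to 37.9) were called in both replicates' own lists, against 41.6% of all exonic regions. This share was not computed for regions with a CTCF match in introns or intergenic sequence, so it is not shown to be particular to exons.

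The SP motif (GGGCGG) occurred in 115 exonic regions (16.7%), against 36.6% of all regions, 12.1% of intron and 61.7% of promoter regions, with 5.34% in the exonic flanks. The ETS motif (CCGGAAG) was in 4.37% of exonic and 19.3% of promoter regions. Other patterns were the KLF motif (CCNCACCC) in 16.3% of exonic and 15.3% of all regions, the E-boxes CAGCTG (18.8% and 14.6%) and CAGATG (17.6% and 12.2%), the AP-1 and NF-E2 motif (TGACTCA or TGAGTCA, 6.70% and 6.00%), RUNX (TGTGGTT, 6.84% and 5.42%), YY1 (AAGATGG, 3.35% and 4.46%) and NRF1 (1.31% and 4.26%), each exonic share first. A match is a stretch of letters and not a measured binding site.

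**Figure D3:**
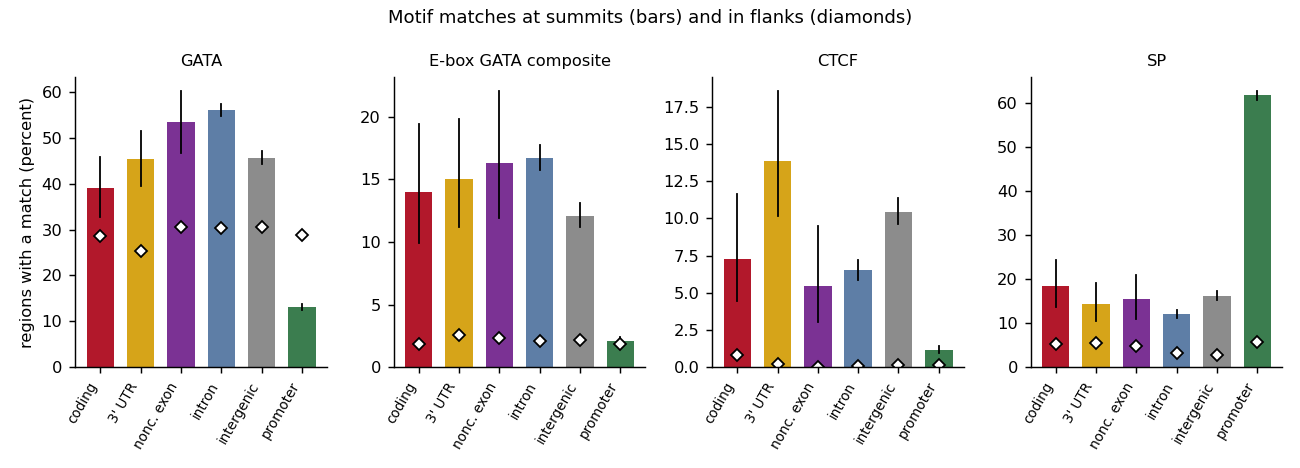
Percent of regions with a match to 4 motifs within 100 bp of the summit (bars from 0, lines are 95% Wilson intervals) and in flanking windows 1 kb away (diamonds), for the exonic classes with over 200 regions and then introns, intergenic sequence and promoters. The composite stands at 14.0% to 16.3% in the exonic classes and 2.11% at promoters, and CTCF is at 13.8% in 3' UTRs.

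A minority of exonic regions had the composition of CpG islands. With a CpG ratio over 0.6 and a GC content over 50%, 86 of 687 (12.5%) counted as CpG rich, among them 46 of 207 coding regions (22.2%) and 13 of 260 in 3' UTRs (5.0%). CpG-rich exonic regions had a median signal of 10.3, held the SP motif in 52.3% and a GATA motif in 19.8%, and 36.0% lay within 1 kb of an annotated start of any transcript type. The other 601 had a median signal of 9.22, the SP motif in 11.6%, a GATA motif in 48.9%, and 25.1% lay near such a start.

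Signal was lower near the 1 kb limit than far from it. The 103 exonic regions from 1 to 2 kb from a TSS had a median signal of 7.11, the 149 from 2 to 5 kb 8.42, the 149 from 5 to 10 kb 9.89, the 135 from 10 to 20 kb 10.0, the 121 from 20 to 50 kb 10.5 and the 30 beyond 50 kb 10.6. The share called in both own lists lay between 39.6% and 44.3% in all of these bands. Just outside the limit stood Rfesd at 1005 bp with a signal of 8.32, Lemd3 at 1020 bp with 5.86 and Cdk13 at 1028 bp with 5.23. Just inside, and so left out, stood Fbl at 997 bp with 5.48, Hes7 at 996 bp with 5.48 and Eif4a1 at 977 bp with 5.54. In all, 2834 summits in exons were left out as within 1 kb of a TSS, and their median signal was 12.4.

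**Figure D4:**
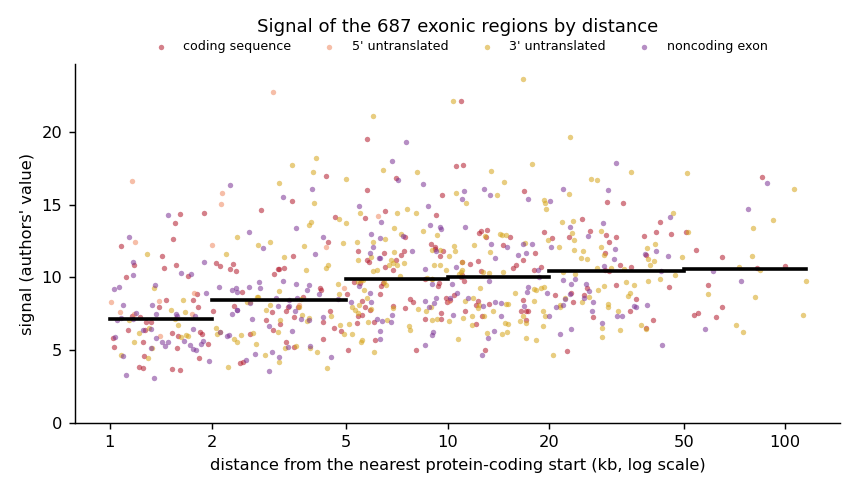
Signal of each of the 687 exonic regions against the distance of its summit from the nearest protein-coding TSS in kb (log scale), colored by class, with black bars for the median of each band. Medians are 7.11 from 1 to 2 kb and 10.6 beyond 50 kb.

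The regions were spread over 652 genes, or 2.98% of 21911 protein-coding genes. Of these, 620 held 1 region, 29 held 2 and 3 held 3. Sbno2, a transcriptional coregulator, held a region in the last exon of a transcript (17.0 in replicate 1 and 14.2 in replicate 2) and 2 more over 1 other exon. Armc9, a protein of the cilium base, held 3 regions, of which the strongest had 13.6 in replicate 1 and 13.5 in replicate 2. Naxd, a repair enzyme for damaged NADH, held 1 region each in coding sequence (8.78 and 10.4 in replicates 1 and 2), the 3' UTR (11.9 and 9.93) and a noncoding exon (6.51 and 6.86). Genes with 2 coding regions were Selenbp2, Pdzd2, Selenbp1, Nacad, Gata1 and Ppp1r15b. Signals in the conservative list were 13.0 and 7.42 for Pdzd2, a PDZ domain protein, 8.34 and 6.93 for Nacad, and 4.11 and 3.67 for Ppp1r15b, a phosphatase subunit of the stress response.

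Genes of the written red cell lists held exonic regions at shares that could not be told from that of all genes. None was found in 9 globin genes or 23 red cell membrane or skeleton genes. Of 15 heme genes only Fech, the ferrochelatase that inserts iron into heme, held one, with 5.22 in replicate 1 and 4.76 in replicate 2. Of 32 erythroid transcription factors and cofactors, Gata1 and Klf1 did (6.25%), and of 19 genes of receptors, signaling, iron and survival, Jak2 and Slc11a2 (10.5%). Each of these shares has a Wilson interval that includes the 2.98% of all genes. The lists are short and do not hold every gene of the red cell program. Jak2, the kinase of the erythropoietin receptor, had 8.52 in replicate 1 and 8.88 in replicate 2 over exon 4 of 25, and Slc11a2, an iron importer, had 7.94 in replicate 1 and 9.43 in replicate 2 over exon 6 of 16. Klf1, an erythroid zinc finger factor, had 6.14 in replicate 1 and 6.25 in replicate 2 over exon 2 of 3, at 1280 bp from the TSS.

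In the other lists, 3 of 22 chromatin regulators held a region (13.6%, 4.75 to 33.3). Brd2, a reader of acetylated histones, had 6.87 in replicate 1 and 7.62 in replicate 2 in its 5' UTR. Kdm6b, a histone demethylase, had 8.99 and 8.88, also in the 5' UTR, and Tet3, an enzyme of DNA demethylation, had 5.88 and 6.05 in a noncoding exon. Of 22 genes of progenitors and other blood lineages, Fli1, an ETS factor of megakaryocytes, had 8.81 in replicate 1 and 10.1 in replicate 2 over a coding exon, and Spi1, the factor PU.1 of myeloid cells, had 5.93 and 6.62. Ckm was the only one among 19 genes of neuron, muscle and liver. By family, 20 of 371 Slc transporter genes (5.39%, 3.52 to 8.18) held a region, 10 of 394 Zfp genes, 2 of 68 protocadherin genes, 1 of 67 histone genes, 1 of 1134 olfactory receptor genes and 0 of 39 Hox genes. The intervals for chromatin regulators and Slc genes lie above the 2.98% of all genes, and that for olfactory receptor genes (0.0156 to 0.498) lies below it. The part of exon length per gene in these shares was not tested.

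Gata1 itself held 2 regions that followed the coding parts of its exons. The region over exon 6 (chrX:7959718-7960142) had 6.00 in replicate 1 and 6.24 in replicate 2, covered all 372 coding bases of that exon and ended 39 bp past them on the side of the stop codon and 14 bp past them on the intron side. The region over exons 3 and 4 (chrX:7961922-7962571) had 6.15 in replicate 1 and 6.33 in replicate 2, with summits in exon 3 and exon 4, and began 2 bp before exon 4 and ended 23 bp after exon 3. In replicate 1 the peak lay over exon 3 alone, from 2 bp outside it at one end to 17 bp outside it at the other. A weaker peak over exon 2 was in the ranked lists of the replicates, at 3.23 in replicate 1 and 5.64 in replicate 2, and did not reach the conservative list. Exon 5, of 126 bp, had no peak.

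Coding sequence made up 87.5% of the exon 6 region and 80.6% of the region over exons 3 and 4. The exon of the summit held 96.7% of the exon 6 region, against a median of 54.2% over all coding regions. In the other region the exon of the strongest summit, exon 3, held only 378 of 650 bp. Over all 207 coding regions, 14 (6.76%) had each end within 50 bp of an exon end. The region over exons 3 and 4 is among them (2 and 23 bp). The exon 6 region is not, because its ends lie 411 and 14 bp from exon ends. The line carries a Gata1 coding sequence without introns, so reads from that construct and reads from the gene's own exons cannot be told apart in these lists. All words of 31 bases in the summit windows of the Gata1 regions are single-copy on the autosomes, X and Y of the reference genome, which does not hold the construct. This comparison was made after the values were seen.

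**Figure D5:**
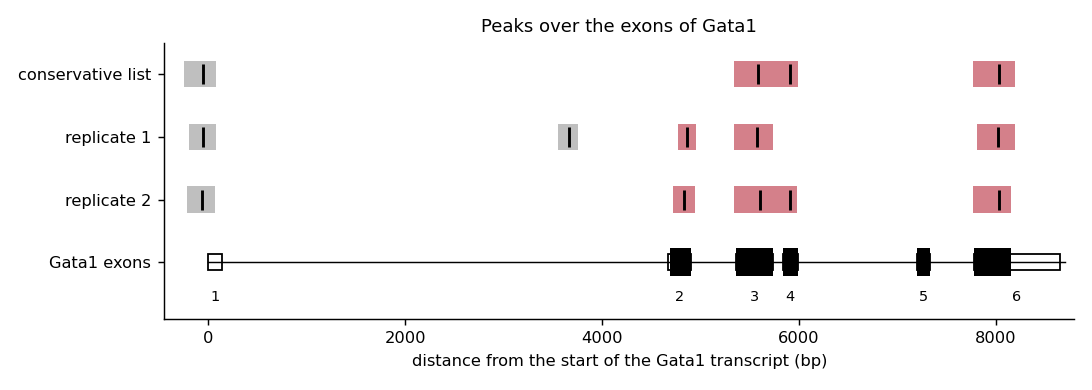
Peaks over Gata1 in the conservative list and in the ranked list of each replicate, by distance from the transcript start in bp (red, summit in an exon after the first; grey, other; ticks are summits), above the 6 exons of the gene (black, coding). Red peaks sit over exons 2, 3, 4 and 6, and exon 5 has none.

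Most exonic regions had a summit window of unique sequence. In 621 of 687 (90.4%) every word of 31 bases in the summit window occurs once on the autosomes, X and Y. Mitochondrial DNA and unplaced sequence were not searched. In 14 over 50% of the words are repeated, and in 5 all are. Among the 66 regions with a repeated word, 24 share words with another region of the list and 11 with another exonic region, a search made after the values were seen.

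The Selenbp pair shares words over 2 exons. Selenbp2 had 9.87 in replicate 1 and 10.9 in replicate 2 over exon 9, and Selenbp1 had 9.82 and 12.2 over its exon 9. Their exon 10 regions had 8.86 and 6.68 for Selenbp2, and 7.23 and 7.61 for Selenbp1, in replicates 1 and 2. The exon 9 windows share 120 of 171 words in Selenbp2 and 109 in Selenbp1, and the exon 10 windows share 93. Srp54a and Srp54c, which encode copies of a signal recognition particle subunit, are alike in all 171 words over exon 16, with 8.73 and 8.64 in replicates 1 and 2 for Srp54a and 7.32 and 11.2 for Srp54c. Clca3a1, Clca3a2 and Clca3b, chloride channel regulators, each had a region over exon 13 of 14. A 3' UTR region of Dffa, an inhibitor of the apoptotic nuclease, and a noncoding exon region of Fmr1 share 82 words on different chromosomes. The sources used here do not give how the authors placed reads that match more than 1 place, so these regions are uncertain as separate regions.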

How the data were processed

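ATAC-seq peak lists of 2 libraries were read. Per the labels, the lists are on mm10. In the deposited narrowPeak rows the authors give a signal value and a −log10 p for each peak. Not given in the sources used here are the aligner, the peak caller, any transposase shift, the read filters and their versions. The depth per library is unknown. The conservative list (29337 rows) gave 20080 merged regions. Classes were taken at the strongest summit, in the order promoter, coding sequence, untranslated, noncoding exon, intron and intergenic, from 54327 TSS positions of protein-coding transcripts in GENCODE M21. Values per replicate are the strongest overlapping peak of that library's own ranked list. A region was called in a replicate's own thresholded list where at least 50% of the shorter region overlapped.

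Motifs (12 patterns, either strand) were searched within 100 bp of the summit. Intervals are 95% Wilson intervals and cover counting error only. Regions are not replicates, so no p-value is given. Named genes were the 6 strongest regions per class, genes with 3 regions or 2 coding regions, genes of the written lists, the 10 strongest with the composite and those nearest the 1 kb limit. Regions and genes said to be chosen after their values were seen fall outside this rule. The members and lists were chosen with earlier results of these data known. No chromosome had a peak past the end of the reference (0 of 21). Merging, the motif search, overlap and the interval were tested on made-up data with known answers. The classification was checked at 400 positions against a direct search of the annotated transcripts. In all, 5 of 5 steps passed. Python 3.11.15, pandas 2.3.3, scipy 1.17.1 and pysam 0.24.0 were used.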

Additional observations from a re-analysis of the deposited data

How the results depend on the processing

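Of 78 values computed under 13 alternatives for 8 results, 47 stayed within 1.5 times the count or within the interval of the share. With one replicate's own list in place of the conservative list, exonic regions numbered 358 to 428, coding 103 to 132, untranslated 155 to 173 and noncoding exon 100 to 123, with an exonic share of 2.55% to 2.75%, 66.6% to 83.0% found in the other replicate's own list, GATA in 48.0% to 49.5% and the composite in 17.3% to 18.5%. Among regions above the median signal there were 247 exonic regions (78 coding, 107 untranslated, 62 noncoding exon), 2.46% of regions, of which 78.1% were called in both lists and 17.8% held the composite. The exonic share was 4.13% over 500 bp from a TSS, 2.91% over 2 kb, 2.51% with the starts of every gene and transcript (noncoding exons 114) and 2.40% with basic transcripts only. Basic transcripts left 0 noncoding exon regions and GATA in 41.4%. Windows of 50 bp on each side of the summit held GATA in 26.3% and the composite in 8.73%, and windows of 200 bp on each side held GATA in 62.4%. The causes were not tested. The pooled list, the region's midpoint and an overlap of 1 bp or 80% moved no value past these bounds. No paired analysis was possible because both libraries belong to 1 group. Depth is unknown, so an exon without a region is not shown to be closed.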
